A study of Mus musculus with 7 samples.

Results

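The genes described are 9 components of the Hedgehog pathway, chosen by name: the transcription factor genes Gli1, Gli2 and Gli3, the receptor gene Ptch1, the signal transducer gene Smo, the co-receptor genes Gas1, Boc and Cdon, and the inhibitor gene Hhip. Each name matched 1 row of the 49315 genes in the count tables, and all 9 were among the 16616 genes that passed a filter on low counts. They were measured by bulk RNA sequencing in oligodendroglia taken from mouse brain. The 3 Control libraries had the genotype Sox9-wt, and the 4 Sox9-tg libraries overexpressed the transcription factor Sox9. The series title places the cells among early postnatal NG2 glia, the proliferating precursors of oligodendrocytes, and asks which genes Sox9 acts on there. The labels give neither the promoter or cell type that drives the transgene, nor the strain, age in days or method of isolation. They call the libraries biological replicates but name no animals or cultures. The p-values therefore reflect only how far these libraries spread, and part of that spread may be technical.

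Hedgehog ligands such as Sonic hedgehog bind Patched receptors at the cell surface, and Gas1, Boc and Cdon hold the ligand there as co-receptors. Without ligand, Patched keeps Smoothened, the product of Smo, inactive. When Smoothened is released, full-length Gli proteins act in the nucleus: Gli2 serves mainly as the activator, Gli3 mainly as a repressor when the pathway is off, and Gli1 is itself a target gene that amplifies the signal. Ptch1 and Hhip are also target genes, and their products restrain the pathway. In the embryonic neural tube this pathway specifies the ventral domain from which the first oligodendrocyte precursors arise, and in the postnatal forebrain Gli1 marks stem cells and some astrocytes that receive the signal.

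Libraries held 15768472 to 30507326 gene counts. Sox9 itself was at 239 to 353 CPM (a gene's count scaled to its library's total count) in Control and at 2207 to 3597 CPM in Sox9-tg libraries, which matched the labels. The counts cannot separate the transgene's transcripts from those of the endogenous gene. Markers of NG2 glia, a list of 10 genes, were present in every library and summed to 2407 to 2795 CPM in Control and 7621 to 11950 CPM in Sox9-tg libraries. Markers of other cells were present too, and several moved with the groups. Markers of mature oligodendrocytes had the highest median log2 fold change of the marker lists (4.20 over 8 tested of 10 listed, of which 6 rose), and their sum was 147 to 290.1 CPM in Control and 795 to 4873 CPM in Sox9-tg libraries. The sum over 10 astrocyte markers was 3014 to 5376 CPM in Control and 2105 to 2960 CPM in Sox9-tg libraries, and 5 of the 10 fell. The sum over 10 radial glia and stem cell markers was 2204 to 2939 and 1666 to 2345 CPM (5 of 10 fell). The sum over 12 neuronal markers was 2933 to 4799 and 1766 to 3503 CPM (6 of 12 fell), and that over 10 proliferation genes was 1497 to 2295 and 569.9 to 1028 CPM (9 of 10 fell). The libraries numbered 2 stood apart within each group, with the highest sums of microglial (584 and 238 CPM), endothelial and pericyte (180 and 50.2 CPM) and ependymal markers (121 and 66.5 CPM).

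All 3 Gli genes and Gas1 were lower in Sox9-tg libraries, whereas Ptch1, Smo, Boc, Cdon and Hhip did not pass the test. Of the 9 genes, 4 fell and 0 rose (quasi-likelihood F test of edgeR, p-values adjusted over 16616 genes by Benjamini-Hochberg, threshold 0.05). At an unadjusted p under 0.05 the counts were 5 lower and 0 higher, where 12.5% of all genes tested were lower and 14.5% higher, and DESeq2 and limma-voom also gave 4 lower and 0 higher. Over all genes tested, 5.86% passed the test lower and 7.69% higher. In the same 4 genes every Sox9-tg library lay below every Control library, which was so for 11.5% of all genes tested. The median log2 fold change was -0.65 over the 9 genes and -0.01 over all genes tested. The 9 genes were chosen with earlier results of these data known, so these comparisons are no test of the set. The same 4 genes passed without the libraries numbered 2. In bulk RNA, fewer cells of a type and less RNA per cell cannot be told apart.

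**Figure D1:**
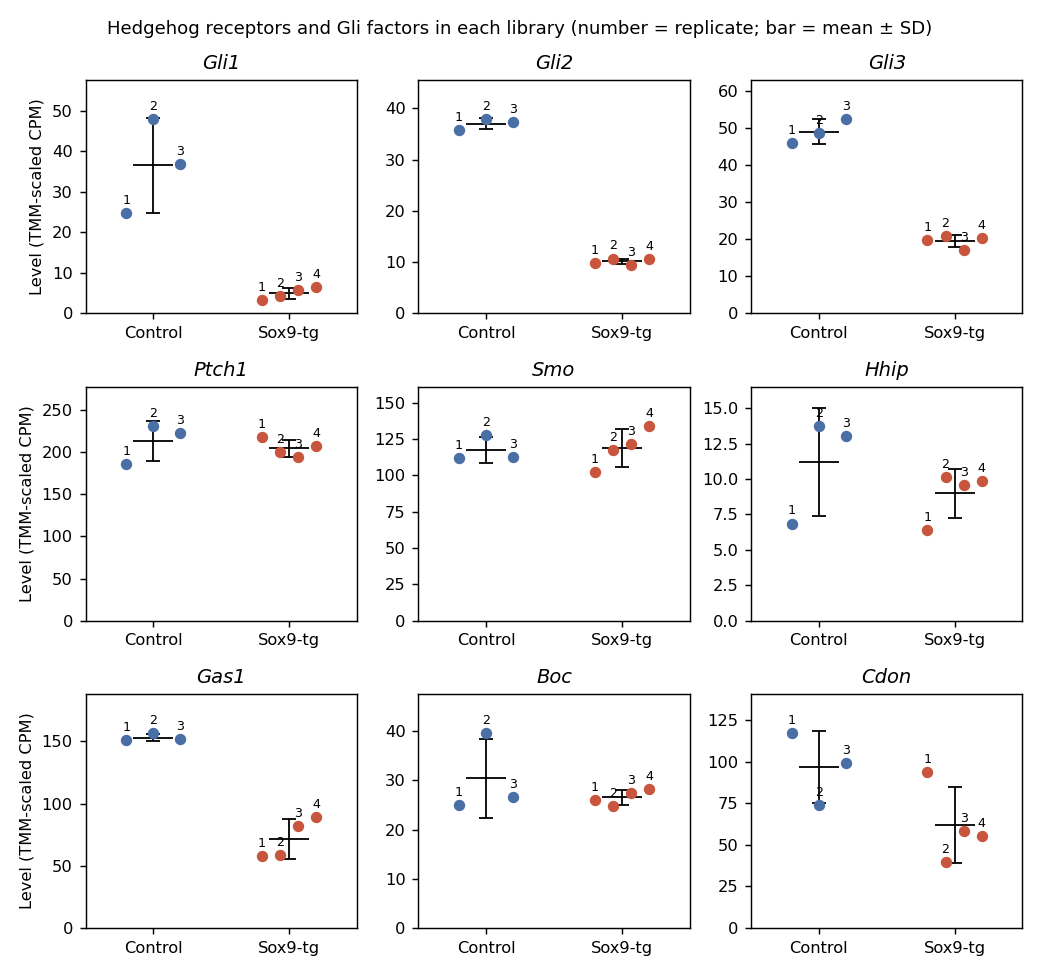
Level in TMM-scaled CPM (vertical axes, from 0) of each of the 9 genes in 3 Control and 4 Sox9-tg libraries; points are libraries numbered by replicate, and bars are the mean ± SD. Gli1, Gli2, Gli3 and Gas1 separate the groups without overlap, and Ptch1, Smo, Hhip, Boc and Cdon overlap.

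Gli1 (ENSMUSG00000025407, GRCm38 chromosome 10, 127329882 to 127341974, minus strand), itself a target gene of the pathway, fell 7.34-fold. Pathway activity was not measured. The level of Gli1 was 24.8, 48.1 and 36.8 CPM in Control replicates 1 to 3 and 3.41, 4.24, 5.80 and 6.49 CPM in Sox9-tg replicates 1 to 4. The lowest Control library thus lay well above the highest Sox9-tg library, although the Control libraries differed among themselves by 1.94-fold. The log2 fold change, Sox9-tg minus Control, was -2.88 (SE 0.28, adjusted p = 0.000498). The Sox9-tg values rest on 65 to 133 reads a library. Its exons share 1.24% of their bases with Arhgap9 on the opposite strand, which held 4 to 109 reads. They share 5.31% with the predicted gene Gm47200, which is not among the genes counted. Whether reads were counted by strand is not given.

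Gli2 (ENSMUSG00000048402, GRCm38 chromosome 1, 118834132 to 119053619, minus strand), the main activator of the family, fell 3.65-fold. It stood at 35.9, 38.0 and 37.3 CPM in Control and at 9.77, 10.7, 9.53 and 10.5 CPM in Sox9-tg libraries. The spread within each group was small beside the gap between them (37.1 ± 1.09 CPM, SD, n = 3, and 10.1 ± 0.580 CPM, n = 4). The log2 fold change was -1.87 (SE 0.11, adjusted p = 0.000118).

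Gli3 (ENSMUSG00000021318, GRCm38 chromosome 13, 15463235 to 15730026, plus strand), whose processed form represses target genes, fell 2.51-fold. Its level was 45.9, 48.7 and 52.5 CPM in Control and 19.7, 20.8, 17.1 and 20.4 CPM in Sox9-tg libraries, with a log2 fold change of -1.33 (SE 0.11, adjusted p = 0.000287). The repressor-type and the activator-type Gli genes were therefore both lower, with no overlap between groups for either. Of the exon bases of Gli3, 1.96% overlap the predicted gene Gm6556 on the opposite strand, which held 19 to 112 reads.

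The measured falls of the 3 Gli genes differed in size in these libraries. Gli1 reads stood to Gli2 reads at a ratio of 0.690, 1.26 and 0.985 in Control and 0.350, 0.395, 0.608 and 0.616 in Sox9-tg libraries. The mean log2 ratio was lower by 1.00 in Sox9-tg libraries, with no overlap between groups. The ratio of Gli2 to Gli3 was 0.711 to 0.781 in Control and 0.495 to 0.556 in Sox9-tg libraries, a difference of -0.54 in mean log2 ratio. For Gli1 against Gli3 the difference was -1.54, against Ptch1 -2.81, against Smo -2.88 and against Hhip -2.59, again without overlap. Each of these 6 ratios gave p = 0.0286 in a two-sided exact permutation test over the 7 libraries (adjusted over the 6, 0.0286), which is the smallest value that 35 splits of 3 and 4 libraries allow. The ratios that hold Gli1 share that gene and are not separate results. Those against Ptch1, Smo and Hhip restate the fall of Gli1 beside genes that did not pass. The permutation test over all libraries treats them as unpaired. Within the 3 pairs of libraries that share a replicate number, each ratio was lower in Sox9-tg libraries in 3 of 3 pairs, and an exact permutation within pairs gave p = 0.25, the smallest it allows, so it cannot pass 0.05.

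The sequences before the RefSeq start sites of the Gli2, Gli3 and Gas1 genes, which fell, are shown beside that of Ptch1, which did not pass. Windows of 300 bases around RefSeq starts (250 before, 50 after; GRCm38.p6) were found for 7 of the 9 genes, all but Gli1 and Boc. A RefSeq start need not be the outermost start of the gene in GENCODE: that of Gli3 lay 488 bases inside the GENCODE gene, that of Ptch1 7863 bases inside and that of Cdon 30948 bases inside. The windows of these 3 genes therefore lie at inner start sites. Printed here are the 250 bases before each start, 5′ to 3′ on the gene's strand, with CG dinucleotides, the sites of CpG methylation, in capitals.
Gli2 (chr1:119053620-119053869, minus strand): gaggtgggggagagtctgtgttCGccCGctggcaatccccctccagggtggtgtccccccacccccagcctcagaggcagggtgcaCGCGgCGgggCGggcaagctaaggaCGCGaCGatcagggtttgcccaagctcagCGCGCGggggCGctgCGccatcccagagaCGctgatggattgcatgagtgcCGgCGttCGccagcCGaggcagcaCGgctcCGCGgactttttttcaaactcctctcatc
Gli3 (chr13:15463473-15463722, plus strand): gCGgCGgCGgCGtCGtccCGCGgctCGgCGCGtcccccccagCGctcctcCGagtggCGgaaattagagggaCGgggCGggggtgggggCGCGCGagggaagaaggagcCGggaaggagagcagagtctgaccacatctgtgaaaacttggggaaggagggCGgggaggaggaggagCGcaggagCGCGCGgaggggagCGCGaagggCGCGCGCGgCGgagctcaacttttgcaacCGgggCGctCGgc
Gas1 (chr13:60177536-60177785, minus strand): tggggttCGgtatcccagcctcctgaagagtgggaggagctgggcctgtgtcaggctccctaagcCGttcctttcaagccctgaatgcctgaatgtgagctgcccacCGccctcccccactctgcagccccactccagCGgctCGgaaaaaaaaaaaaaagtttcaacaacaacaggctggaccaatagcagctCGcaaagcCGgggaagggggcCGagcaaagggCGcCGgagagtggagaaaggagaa
Ptch1 (chr13:63565736-63565985, minus strand): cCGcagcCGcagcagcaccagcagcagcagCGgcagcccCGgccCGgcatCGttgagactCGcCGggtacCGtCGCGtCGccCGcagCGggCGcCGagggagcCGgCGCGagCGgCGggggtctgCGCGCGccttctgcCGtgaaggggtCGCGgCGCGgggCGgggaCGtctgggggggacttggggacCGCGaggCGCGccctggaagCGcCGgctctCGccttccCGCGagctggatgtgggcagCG

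All 4 stretches were rich in G and C, at 67.2% for Gli2, 72.8% for Gli3, 58.8% for Gas1 and 78.4% for Ptch1. They held 22, 34, 10 and 41 CG dinucleotides. The Gli consensus GACCACCCA, read on both strands, was in 0 of the 7 windows, and in 0.253% of 32851 windows of all genes. With at most 1 mismatch it was still in 0 of the 7, and in 6.74% of all windows. The SOX core ACAATG was in 0 of the 7 (12.6% of all windows). The other SOX core, ACAAAG, was in 1 of the 7, the window of Smo, beginning 12 bases after the start (18.7% of all windows). These letters describe the windows only.

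Ptch1 (ENSMUSG00000021466, GRCm38 chromosome 13, 63508328 to 63573598, minus strand), the receptor and a target gene of the pathway, did not pass in these cells while Gli1 fell. It stood at 186, 231 and 223 CPM in Control and at 218, 200.5, 194 and 208 CPM in Sox9-tg libraries, so the groups overlapped fully. The log2 fold change was -0.06 (SE 0.12, adjusted p = 0.804), with a 95% interval of -0.33 to 0.21.

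Hhip (ENSMUSG00000064325, GRCm38 chromosome 8, 79965851 to 80058006, minus strand), whose product captures ligand, did not pass. Its level was 6.86, 13.8 and 13.0 CPM in Control and 6.41, 10.1, 9.60 and 9.86 CPM in Sox9-tg libraries. Replicate 1 was the lowest library in both groups. The log2 fold change was -0.32 (SE 0.27, adjusted p = 0.499, 95% interval -0.94 to 0.29).

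Smo (ENSMUSG00000001761, GRCm38 chromosome 6, 29735503 to 29761365, plus strand), the transducer on which the whole pathway depends, stood at 112, 128 and 113 CPM in Control and at 102, 117, 121 and 134 CPM in Sox9-tg libraries. The groups overlapped, and the log2 fold change was 0.02 (SE 0.12, adjusted p = 0.954, 95% interval -0.26 to 0.29). Its sign turned under other scalings, to -0.03 with upper-quartile factors and -0.04 with total counts.

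Of the 3 co-receptor genes, Gas1 fell and Boc and Cdon did not pass. Gas1 (ENSMUSG00000052957, GRCm38 chromosome 13, 60174405 to 60177365, minus strand) encodes a membrane-anchored protein that promotes Hedgehog signalling and was first known from growth-arrested cells. It was at 151, 157 and 152 CPM in Control and at 57.5, 58.7, 81.8 and 89.2 CPM in Sox9-tg libraries. Control libraries were nearly equal, and Sox9-tg replicates 1 and 2 lay below replicates 3 and 4. The log2 fold change was -1.09 (SE 0.17, adjusted p = 0.00384), a 2.13-fold fall. Of its exon bases, 19.9% overlap the predicted antisense gene Gm48488 in the GENCODE annotation, which is not among the genes counted.

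Boc (ENSMUSG00000022687, GRCm38 chromosome 16, 44485049 to 44558897, minus strand) and Cdon are related cell-surface proteins of the immunoglobulin superfamily. Boc was at 24.9, 39.6 and 26.7 CPM in Control and at 26.0, 24.8, 27.4 and 28.2 CPM in Sox9-tg libraries. Control replicate 2 stood above all others, and the remaining libraries lay close together. The log2 fold change was -0.19 (SE 0.17, adjusted p = 0.511, 95% interval -0.58 to 0.19), and 0.05 without Control replicate 2.

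Cdon (ENSMUSG00000038119, GRCm38 chromosome 9, 35421128 to 35507652, plus strand) differed by 1.58-fold among Control libraries and by 2.38-fold among Sox9-tg libraries. It was at 117, 74.1 and 99.4 CPM in Control and at 94.0, 39.5, 58.3 and 55.6 CPM in Sox9-tg libraries. In both groups replicate 1 was highest and replicate 2 lowest, and Sox9-tg replicate 1 lay above Control replicate 2. With all libraries the log2 fold change was -0.65 (SE 0.27, adjusted p = 0.168). With the replicate number as a block, in the 6 libraries numbered 1 to 3, it was -0.66 and passed (adjusted p = 0.012), against -0.59 (adjusted p = 0.333) in the same 6 libraries without the block. Without Sox9-tg replicate 1 it was -0.93 and passed (adjusted p = 0.0192). Leaving out any other single library gave -0.80 to -0.47 (adjusted p = 0.118 to 0.43), and the smallest changes came without Control replicate 1 (-0.47, adjusted p = 0.43) and without Sox9-tg replicate 2 (-0.47, adjusted p = 0.252).

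**Figure D2:**
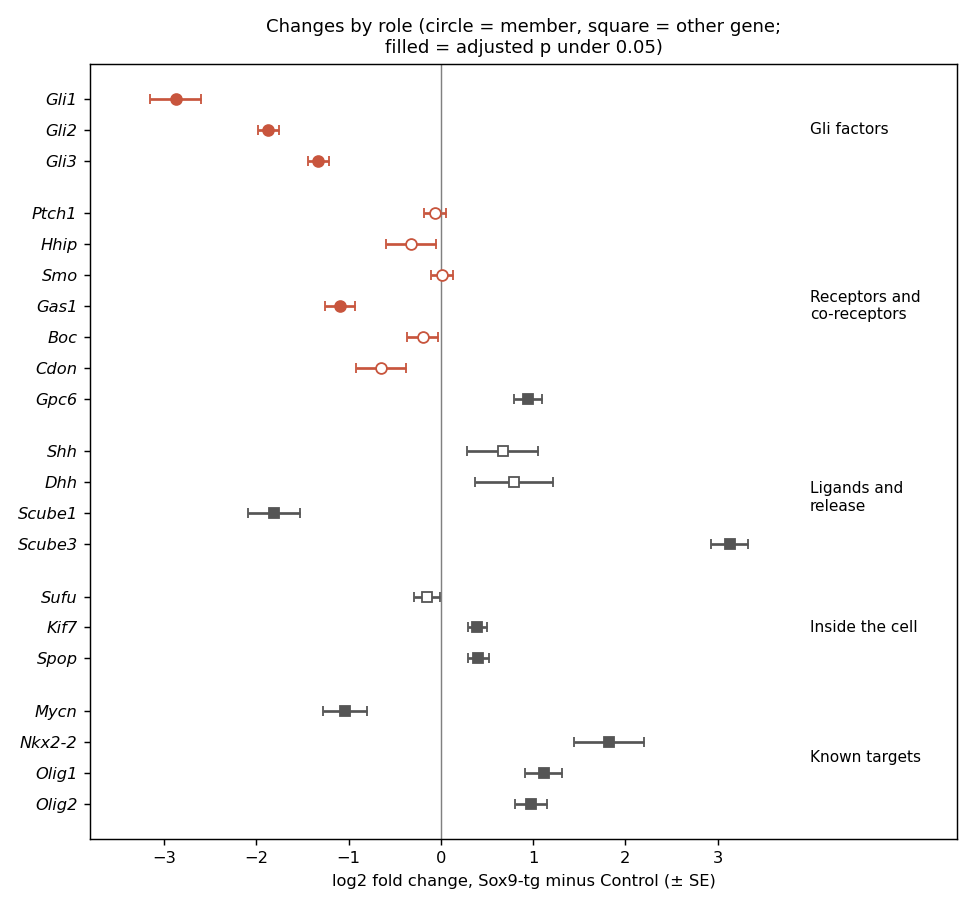
log2 fold change, Sox9-tg minus Control, with its SE (horizontal axis) for the 9 genes (circles) and other named genes of the pathway (squares), ordered by role; filled symbols passed the test. The 3 Gli genes, Gas1, Scube1 and Mycn lie to the left of 0, and Scube3 lies farthest to the right, at 3.13.

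Most other genes of the pathway did not pass. Of 42 other pathway genes listed, 41 were found by symbol and 40 were tested, of which 1 fell and 4 rose, beside 5.86% and 7.69% of all genes tested. Their median log2 fold change was 0.04. At an unadjusted p under 0.05 the counts were 2 lower and 8 higher, beside 12.5% and 14.5% of all genes tested. The genes called were Scube1, Scube3 and Gpc6, with products outside the cell or at its surface, and Kif7 and Spop, which act inside it.

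Transcripts of the ligand genes were scarce. Shh, which encodes Sonic hedgehog, held 0.99, 0.78 and 0.42 CPM in Control and 1.10, 1.30, 0.97 and 1.22 CPM in Sox9-tg libraries, or 13 to 26 reads. Dhh, the Desert hedgehog gene, held 0.61 to 1.30 and 1.16 to 2.58 CPM. Neither passed (log2 fold change 0.67, adjusted p = 0.316 for Shh, and 0.79, adjusted p = 0.27 for Dhh). Ihh had 3 to 9 reads in every library and was not tested.

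The largest change in the pathway lists was that of Scube3, which encodes a secreted protein of a family that helps release lipid-modified Hedgehog ligands from cells. Scube3 rose 8.75-fold, from 17.7, 10.7 and 13.6 CPM in Control to 140, 106, 129 and 112 CPM in Sox9-tg libraries. Its log2 fold change was 3.13 (SE 0.20, adjusted p = 0.000118). Its paralog Scube1 went the other way. Scube1 was at 43.4, 16.6 and 25.6 CPM in Control and at 8.30, 8.63, 8.05 and 7.47 CPM in Sox9-tg libraries (-1.81, SE 0.28, adjusted p = 0.00416), and without Control replicate 1 its log2 fold change was -1.37. The glypican gene Gpc6, one of a family of surface proteoglycans that bind Hedgehog ligands, rose from 30.5 ± 5.01 to 58.6 ± 7.65 CPM (0.94, SE 0.15, adjusted p = 0.00478).

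Among genes acting inside the cell, 0 of 15 listed as positive for signalling passed in edgeR's test (0 lower and 2 higher at an unadjusted p under 0.05). Of 12 negative regulators, 2 rose and 0 fell (at an unadjusted p under 0.05, 2 were higher and 1 lower). Over all genes tested the shares were 5.86% lower and 7.69% higher, and 12.5% and 14.5% without adjustment. Kif7, a kinesin of the primary cilium that controls Gli processing, went from 30.8 ± 2.61 to 40.5 ± 1.27 CPM (0.39, SE 0.10, adjusted p = 0.037). Spop, an adaptor that sends full-length Gli2 and Gli3 protein to degradation, went from 107 ± 6.12 to 141 ± 13.1 CPM (0.40, SE 0.11, adjusted p = 0.0475). Both calls were close to the threshold: Kif7 lost its call in 9 of 16 alternative settings (adjusted p over all 16 from 0.00616 to 0.156) and Spop in 13 of 16 (0.00538 to 0.225). Both lost it under upper-quartile factors (0.0687 and 0.0526) and total counts (0.0738 and 0.0635). Leaving out Control replicate 1 gave 0.134 and 0.0966, and leaving out Control replicate 3 gave 0.156 and 0.225. Without Sox9-tg replicates 2, 3 and 4 the values were 0.0706, 0.106 and 0.0993 for Kif7 and 0.0843, 0.138 and 0.113 for Spop, which was also lost without Control replicate 2 (0.116) and with the replicate block (0.0651). Sufu, the main cytoplasmic brake on Gli proteins, was at 67.9 ± 7.09 and 61.2 ± 8.37 CPM and did not pass (-0.15, adjusted p = 0.547).

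The target genes listed, known from at least 1 tissue, leave out Gli1, Ptch1 and Hhip, which are described above. Of 19 listed, 15 were tested, 1 fell (Mycn) and 3 rose, beside 5.86% lower and 7.69% higher over all genes tested, with a median log2 fold change of 0.12. Mycn, a growth-promoting transcription factor gene, was at 112, 74.9 and 87.0 CPM in Control and at 56.7, 26.7, 47.6 and 46.1 CPM in Sox9-tg libraries (-1.04, SE 0.24, adjusted p = 0.0222). The call did not hold when 1 library was left out, be it Control replicate 1 (adjusted p = 0.0989), Control replicate 3 (0.0776), Sox9-tg replicate 3 (0.0589) or Sox9-tg replicate 4 (0.0613).

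The targets that rose were the ventral neural tube factors Nkx2-2, Olig1 and Olig2, which are also factors of the oligodendrocyte lineage, and Olig1 and Olig2 are in the NG2 glia list as well. Nkx2-2 was at 20.1, 42.8 and 31.0 CPM in Control and at 51.3, 152, 130 and 111 CPM in Sox9-tg libraries (1.82, SE 0.38, adjusted p = 0.0149). Olig1 rose 2.16-fold and Olig2 1.97-fold. With Control replicate 3 left out, none of the 3 passed (adjusted p = 0.0681, 0.059 and 0.0605), nor did Nkx2-2 without Control replicate 1 (0.0531). Over the same libraries all 10 NG2 glia markers rose; their part in these 3 rises was not tested.

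Per kilobase of exon, Gas1 was the most abundant of the 9 genes in Control libraries and Hhip the least. The median levels were 51.3 CPM per kilobase for Gas1, 20.1 for Smo, 15.7 for Ptch1, 12.9 for Cdon, 7.36 for Gli1, 6.0 for Boc, 5.43 for Gli2, 5.08 for Gli3 and 1.44 for Hhip. The ranges over libraries of Ptch1 and Cdon overlapped, as did those of Cdon and Gli1, of Gli1 and Boc, and of Gli2 and Gli3, so these neighbours do not differ beyond their spread.

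In Sox9-tg libraries Gas1 and Smo were the highest, at 23.7 and 21.2 CPM per kilobase with overlapping ranges. Ptch1 followed at 14.4, Cdon at 7.38, Boc at 6.01, Gli3 at 2.09, Gli2 at 1.48, Hhip at 1.07 and Gli1 at 1.01. The ranges of Cdon and Boc overlapped, as did those of Hhip and Gli1. Gli1 thus moved from rank 5 in Control to rank 9 in Sox9-tg libraries, and its range there (0.683 to 1.30) took in that of Hhip (0.706 to 1.12). With the longest transcript as the length, Gli2 and Gli3 changed places in Control, and in Sox9-tg libraries Gas1 and Smo and also Gli1 and Hhip did.

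**Figure D3:**
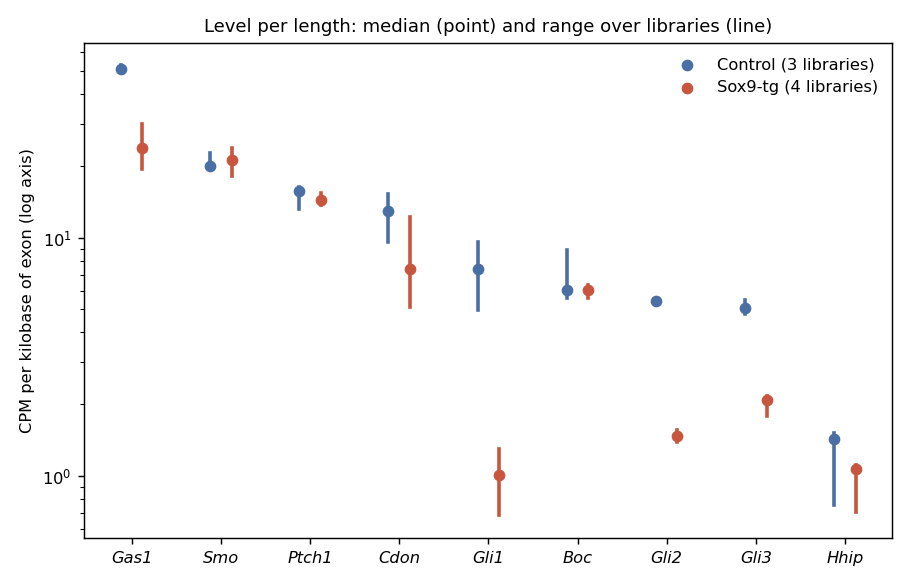
CPM per kilobase of exon (vertical log axis) of the 9 genes, ordered by Control median; points are medians and lines the range over 3 Control or 4 Sox9-tg libraries. The gap between groups is widest for Gli1, at 7.36 against 1.01 CPM per kilobase, and the ranges of Smo, Ptch1, Boc, Cdon and Hhip overlap between groups.

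Within each group, Gli1 ranked the libraries as the astrocyte markers did and Cdon as the neuronal markers did, both noticed after the values were seen. Every gene described was set beside several marker lists, and these matches were picked from them. With so few libraries a shared order can arise by chance. Gli1 and the astrocyte marker sum ranked the libraries in the same order in both groups, as did Smo and Gas1. In Control libraries alone, Gli2, Ptch1, Boc and Hhip shared the astrocyte order too. There Gli1 also had the order of the NG2 glia and oligodendrocyte sums. Per 1000 CPM of astrocyte markers, Gli1 stood at 8.21, 8.94 and 8.96 CPM in Control and at 1.62, 1.66, 2.17 and 2.19 CPM in Sox9-tg libraries. The ratio was nearly constant among Control libraries, and the mean was 4.56-fold lower in Sox9-tg libraries. Per 1000 CPM of oligodendrocyte markers, Gli1 was also similar among Control libraries, at 169, 165.7 and 153.4 CPM. The mean of Gli1 was 6.05-fold lower per 1000 CPM of radial glia markers, 4.71-fold per 1000 CPM of neuronal markers, 3.39-fold per 1000 CPM of proliferation genes and 29.1-fold per 1000 CPM of NG2 glia markers, which rose. Per 1000 CPM of astrocyte markers, Ptch1 stood at 43.0 to 61.8 CPM in Control and 70.2 to 103 CPM in Sox9-tg libraries. Smo stood at 23.7 to 37.1 and 45.3 to 48.6 CPM, and Boc at 6.51 to 8.27 and 9.53 to 12.4 CPM. All of these were higher in Sox9-tg libraries without overlap, whereas Hhip overlapped (2.275 to 3.177 and 3.043 to 3.972 CPM). The astrocyte sum, the divisor here, was itself lower in Sox9-tg libraries.

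Cdon ranked the libraries in the same order as the neuronal marker sum in both groups. In Control libraries alone it also had the order of the proliferation genes. Per 1000 CPM of neuronal markers, Cdon stood at 24.4, 25.3 and 25.9 CPM in Control and at 26.8, 22.3, 25.8 and 24.6 CPM in Sox9-tg libraries, so on this scale the groups overlapped. For Gli2, Gli3 and Gas1 the means per 1000 CPM of astrocyte markers were 2.34-, 1.60- and 1.40-fold lower in Sox9-tg libraries. On this scale the groups stayed apart for Gli2 only. They overlapped for Gli3 (9.057 to 15.23 CPM in Control, 6.405 to 9.379 CPM in Sox9-tg libraries) and for Gas1 (29.15 to 50.1 and 23.03 to 30.58 CPM). Per 1000 CPM of proliferation genes the Control means of Gli2, Gli3 and Gas1 were 1.61, 1.11 and 0.957 times the Sox9-tg means. There the groups overlapped for each of these genes. The part of changes in cell makeup in these results was not tested.

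**Figure D4:**
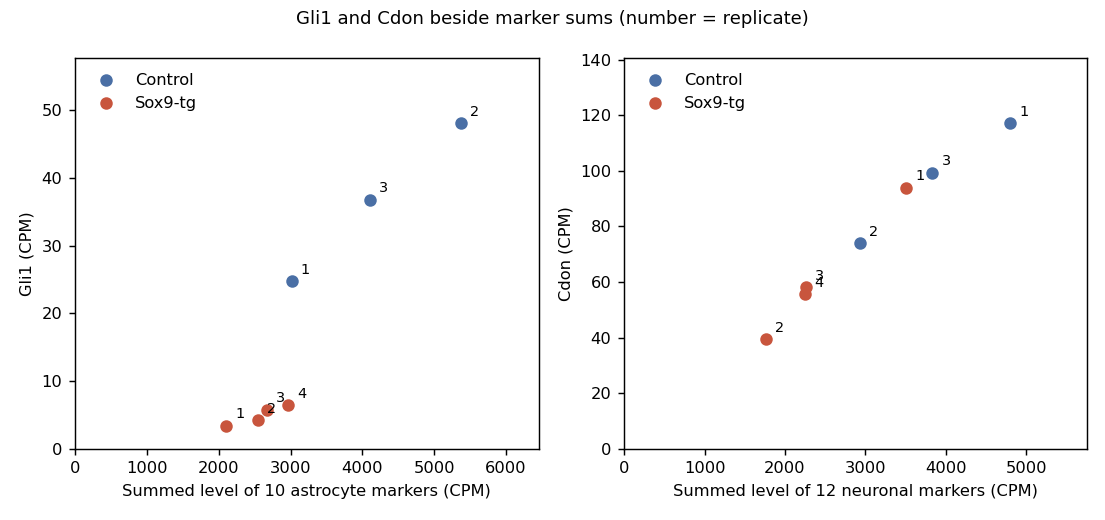
Left, Gli1 level against the sum of 10 astrocyte markers; right, Cdon level against the sum of 12 neuronal markers, all in CPM with axes from 0, 1 point per library numbered by replicate. For Gli1 the Control and Sox9-tg libraries lie at different heights (24.8 to 48.1 against 3.41 to 6.49 CPM), and for Cdon all 7 libraries lie along a common rise.

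Genes with the most similar pattern were sought among 11197 genes by the root mean square difference between log2 profiles over the 7 libraries, each centred on its own mean. Nearest to Gli1 were Aqp4, the astrocyte water channel gene (0.34), the urea transporter gene Slc14a2 (0.38) and Cbs, an enzyme of cysteine synthesis (0.38). Nearest to Gli2 were Mdga1, which encodes a membrane-anchored adhesion protein (0.08), Islr (0.13) and Nbl1, a secreted antagonist of bone morphogenetic proteins (0.14). Mdga1 was at 54.7, 59.4 and 60.9 CPM in Control and at 14.4, 15.7, 13.2 and 14.8 CPM in Sox9-tg libraries.

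Nearest to Gli3 were Ntng1, which encodes netrin-G1 (0.12), the peroxisomal transporter gene Abcd2 (0.14) and the GABA receptor subunit gene Gabra2 (0.15). Since likeness was measured over both groups, the neighbours' change between groups was part of the choice and is no separate result. Nearest to Ptch1 were Rnft1 (0.04), Anks3 (0.06) and Nprl3 (0.06), at log2 fold changes of -0.07, 0.01 and 0.02; the sign of Anks3 and Nprl3 turned with upper-quartile factors or total counts.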

How the data were processed

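The authors deposited a table of raw read counts per gene for each of the 7 libraries, whole numbers with an Ensembl ID and a gene name on every row. The submitters' processing notes name build GRCm38 and, as tools, DESeq, DESeq2, featureCounts from Subread 1.5.2, Trimmomatic 0.36 and STAR 2.5.2b. No source used here gives their roles, their settings or any use of strand. Genes were filtered with edgeR's filterByExpr (minimum count 10, minimum total count 15), which removed 0.0798% to 0.364% of each library's counts. Libraries were scaled with TMM factors, and levels are CPM on the scaled totals, where 3 counts equal 0.097 to 0.193 CPM. The main test was the quasi-likelihood F test of edgeR 4.0.16 (R 4.3.3), two-sided, with group as its only term and Benjamini-Hochberg adjustment over 16616 genes. SEs were computed from each log2 fold change and its F value, and 95% intervals use the SE and the test's total degrees of freedom. The procedure was tested on simulated counts.

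Coordinates and exon lengths come from GENCODE M21 (GRCm38), and promoter windows from RefSeq (GRCm38.p6). The members and lists were chosen with earlier results of these data known. Genes named were Sox9, the 9 members, called genes of the pathway lists (up to 6 in each direction) and of the target list (up to 5), Shh, Ihh, Dhh, Sufu and Kif7, and the 3 genes most like Gli1, Gli2, Gli3 and Ptch1 in pattern (mean of at least 5 CPM, log2 of CPM plus 0.1, no predicted or clone names). Arhgap9, Gm47200, Gm6556 and Gm48488 were named for overlapping exons. A gene withheld for evaluation was left out of the lists and is not reported here. Ratios were compared with exact permutation tests. The smallest two-sided p there is 0.0286, not the larger value assumed when the test was planned. Alternatives covered 3 other scalings, 2 other filters, DESeq2 1.42.0, limma-voom (limma 3.58.1), the replicate block and leaving out each library. Leaving out both libraries numbered 2 was added after seeing the data. The labels number replicates in both groups without naming a shared litter or day. Deviations from the group means correlated over genes at 0.36, 0.63 and 0.11 for the pairs numbered 1, 2 and 3, each over the criterion of 0.1. Control replicate 3, however, correlated more with Sox9-tg replicate 1 (0.13) than with its own number. The numbers were therefore taken only as a possible pairing. The replicate block and the permutation within pairs used it, and the main test did not.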

Additional observations from a re-analysis of the deposited data

Results flagged for a closer look

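Hhip in Sox9-tg replicate 1, at 6.41 CPM, lay far below the other Sox9-tg libraries, the nearest of which held 9.60 CPM. The gap made up 0.858 of the group's range, above Dixon's 95% critical value for 4 samples. Of 34 genes checked in this way it was the only one, and chance flags about 1 in 20. Control replicate 1 was also the lowest Control library for Hhip, at 6.86 CPM.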

How the results depend on the processing

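Gli1, Gli2, Gli3 and Gas1 kept their direction and their calls under all 16 alternatives, with log2 fold changes from -3.07 to -2.54, -1.92 to -1.83, -1.38 to -1.26 and -1.23 to -0.97. Of 144 values over the 9 genes, 132 kept direction and side of the threshold, 2 newly passed (Cdon) and 10 changed sign, all in genes that did not pass. These were Ptch1 (0.0275 without both libraries numbered 2, and -0.14 to 0.0061 when 1 library was left out), Boc (0.0925, and -0.30 to 0.0493) and Smo (-0.0348 with upper-quartile factors, -0.0368 with total counts, -0.0398 with the replicate block, and -0.0385 to 0.0869). Among the genes most like Ptch1, Rnft1 gave 0.0398 without both libraries numbered 2 and -0.149 to 0.0086 with 1 library left out. Upper-quartile factors and total counts gave -0.0388 and -0.0417 for Anks3 and -0.025 and -0.0273 for Nprl3, and leaving out 1 library gave -0.063 to 0.0782 and -0.0468 to 0.0797. The cause of these turns was not tested. Of 400 values for the other 25 named genes, 360 were unaffected, 30 lost the call and 10 changed sign. Other pathway genes higher in Sox9-tg libraries numbered 4, but 2 under upper-quartile factors, 2 under total counts, 2 without the filter, 2 without both libraries numbered 2, and 2 to 5 with 1 library left out. Target genes lower numbered 1, but 2 in the DESeq2 Wald test, 2 with the replicate block and 0 to 2 with 1 library left out; those higher numbered 3, and 0 to 4 with 1 library left out. Over all genes, 2251 changed, and 965 (without Control replicate 3) to 3169 (without Sox9-tg replicate 1) with 1 library left out, the cause of which was not tested. With the replicate block, in the 6 libraries numbered 1 to 3, 3086 genes changed, against 1356 in those libraries without it. Compared with the main test, the block changed the calls of Cdon and Spop and of no other gene named. Compared with the same 6 libraries without the block, Cdon, Kif7 and Mycn newly passed. Adjusted p went from 0.0993 to 0.0461 for Kif7 and from 0.0613 to 0.000972 for Mycn. Spop passed in neither (0.113 and 0.0651). With libraries left out, the 6 ratios moved by less than the spread between libraries. Counting depth limits scarce genes such as Shh, Dhh and Ihh.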
